A study of Homo sapiens with 6 samples.

Results

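The genes described here are the 10 transcripts that encode the NF-κB subunits and their IκB inhibitors: the canonical subunits NFKB1, RELA and REL, the noncanonical subunits NFKB2 and RELB, the inhibitors NFKBIA, NFKBIB and NFKBIE, and the nuclear IκB proteins NFKBIZ and BCL3. They were taken by gene symbol from the deposited gene tables, in which they are 10 of 16390 listed genes, and all 10 passed the filter on low counts that left 13055 genes for testing. RNA-seq of total RNA was made from SW780, an established human bladder cancer cell line that the study uses as a luminal model. Of its 6 libraries, 3 are Control and 3 are RC48, from cells exposed at 25 µg/ml to RC48, an antibody–drug conjugate that binds ERBB2 (HER2) on the cell surface and carries the microtubule poison MMAE. The exposure time is not given in the sources used here, and neither an unarmed antibody nor a free-drug group was analysed here. The libraries held 16453233 to 17988030 estimated counts each. No source used here says that replicates came from separate cultures, so the p-values measure the spread between these libraries, which may be technical. The measurements are of bulk RNA, in which more expressing cells and more RNA per cell cannot be told apart.

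NF-κB is a family of transcription factors that bind DNA as pairs of subunits. In the canonical arm, RELA, REL and the product of NFKB1 are held inactive by IκB proteins until the IKK kinase complex marks the IκB for degradation, after which the pair enters the nucleus. In the noncanonical arm, the kinases NIK (gene MAP3K14) and IKKα (gene CHUK) cause the NFKB2 precursor to be trimmed to its active form, which pairs with RELB. Several genes of the family are known NF-κB targets in many cell types, and the resynthesis of IκBα from NFKBIA is a classical negative feedback. RNA levels report neither the trimming of the precursors, nor the degradation of IκB, nor the nuclear location of a subunit.

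Promoter windows of the family are shown because several of these genes are known targets of the factor they encode or restrain, and the κB consensus is the sequence that NF-κB is known to prefer. The RefSeq promoter table (GRCh38.p14) held windows of 300 bases, from 250 bases before to 50 bases after an annotated start site, for 8 of the 10 genes, with RELB and NFKBIE having no entry. Searched on both strands for the κB consensus, with overlapping matches counted apart, the windows of 7 of the 8 genes held a match, against 13.3% of all 27305 genes in that table. Capitals mark the 10 matched letters within 30 bases, and matches that overlap a printed one, and further ones in NFKB2, NFKBIB and NFKBIZ, are left out.
NFKB1, 49 bases before an annotated start site, chr4:102501300-102501329, plus strand: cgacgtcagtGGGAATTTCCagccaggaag
REL, 47 bases before an annotated start site, chr2:60881517-60881546, plus strand: cgtcagccgcGGGAAATTCCcctcccgcca
NFKB2, 107 bases before a start site, chr10:102394461-102394490, plus strand: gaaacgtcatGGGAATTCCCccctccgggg
NFKB2, 78 bases before the same start site, chr10:102394490-102394519, plus strand: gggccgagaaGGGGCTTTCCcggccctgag
NFKB2, 21 bases before another start site, chr10:102395674-102395703, plus strand: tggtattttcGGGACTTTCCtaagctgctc
NFKBIA, 81 bases before an annotated start site, chr14:35404811-35404840, minus strand: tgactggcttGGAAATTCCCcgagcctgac
NFKBIB, 28 bases before an annotated start site, chr19:38899931-38899960, plus strand: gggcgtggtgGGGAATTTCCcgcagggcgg
NFKBIZ, 223 bases before an annotated start site, chr3:101827757-101827786, plus strand: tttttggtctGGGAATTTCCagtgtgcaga
BCL3, just after an annotated start site, chr19:44748700-44748729, plus strand: ccggctgcagGGGAAGTCCCggcgcccggc
The windows of RELA held no match. A match of letters is a description of the sequence and does not show that a factor was bound there, and genes with a match included both members that rose after RC48 and members that were not called.

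After RC48 exposure, 5 of the 10 genes rose and none was called lower; at an unadjusted p under 0.05 in edgeR, 7 were higher and none lower, where 19.1% of all genes tested passed, 11.9% higher and 7.21% lower. The 5 were RELB and NFKB2, which make up the noncanonical arm, the inhibitors NFKBIA and NFKBIE, and the nuclear IκB BCL3. Their log2 fold changes ran from 1.53 to 2.96. Over the 13055 genes tested with edgeR's quasi-likelihood test, at an adjusted p of 0.05, 2.21% were called in either direction, 1.98% higher and 0.23% lower. The median log2 fold change over all genes tested was 0.02. In CPM, counts scaled to the library total, the 3 RC48 libraries lay above the 3 Control libraries without overlap for 8 members, where 17.4% of all genes tested did so, and for no member did they lie below, where 14.1% of all genes did. REL and NFKBIZ were the members whose groups overlapped.

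**Figure D1:**
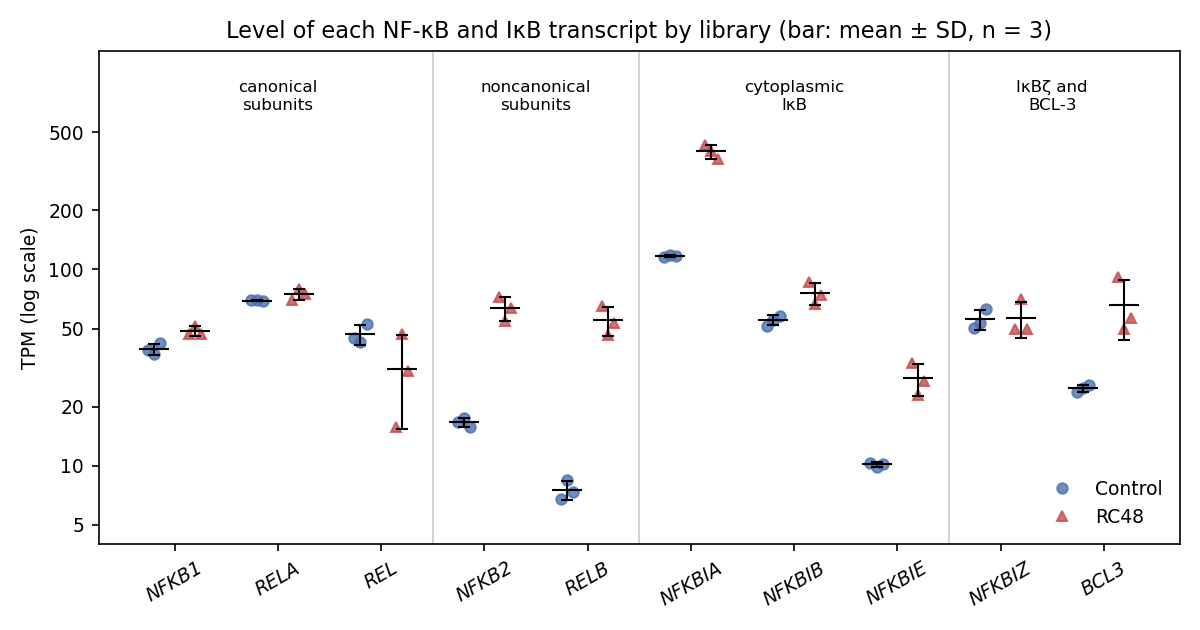
Level of each of the 10 genes in every library, as TPM on a log axis, with Control libraries as circles, RC48 libraries as triangles, and bars for the mean ± SD of 3 libraries. RELB shows the widest gap, from 6.80 to 8.48 TPM in Control to between 46.5 and 64.9 TPM in RC48, while the points of REL and NFKBIZ overlap between groups.

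Levels between genes were compared in TPM, which scales counts by transcript length as well as by library. In Control cells, NFKBIA was the most abundant member at 116.9 ± 1.69 TPM (SD, n = 3). RELA, which encodes the main activating subunit of the canonical arm, followed at 69.3 ± 0.472 TPM. NFKBIZ, NFKBIB and REL had mean levels between 46.7 and 55.6 TPM, and neighbours among them overlapped between libraries. NFKB1, BCL3, NFKB2, NFKBIE and RELB then followed in separate steps, from 39.2 ± 2.55 TPM for NFKB1 down to 7.55 ± 0.855 TPM for RELB. RELB was thus the least abundant family member in Control SW780 cells.

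After RC48 the order was different. NFKBIA stood at 399.2 ± 33.5 TPM (SD, n = 3), apart from all other members. From NFKBIB at 75.5 ± 9.73 TPM down to NFKBIE at 27.9 ± 5.29 TPM, each gene's range overlapped that of its neighbour. The order of neighbours among these 9 genes was thus not resolved, though genes further apart could stand clear of each other. RELB had a mean of 54.9 ± 9.29 TPM and NFKB2 a mean of 63.6 ± 8.91 TPM. RELA, at 74.6 ± 4.86 TPM, lay above RELB without overlap, while the ranges of NFKB2 and RELA overlapped.

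RELB encodes the activating subunit of the noncanonical pair, on chr19:45001464-45038192 of GRCh38.p14. Its level was 6.80, 8.48 and 7.36 TPM in Control replicates 1 to 3, and 64.9, 46.5 and 53.5 TPM in RC48 replicates 1 to 3. No RC48 library came near the Control range. By edgeR's quasi-likelihood test the fold was 7.78, a log2 fold change of 2.96 (SE 0.22, 95% interval 2.45 to 3.47), with an adjusted p of 0.000637.

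NFKB2 encodes the precursor of the other noncanonical subunit, which in its untrimmed form also acts as an inhibitor of RELB, on chr10:102394110-102402529. It was at 16.8, 17.5 and 15.7 TPM in the Control libraries and at 72.7, 54.9 and 63.3 TPM in the RC48 libraries. The groups did not overlap. The fold was 4.05, a log2 fold change of 2.02 (SE 0.19, 95% interval 1.58 to 2.45), with an adjusted p of 0.00181 in edgeR.

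Of the canonical subunits, none was called. NFKB1, which encodes the precursor of the DNA-binding partner of RELA, on chr4:102501359-102617302, was at 38.8, 36.9 and 42.0 TPM in Control and at 46.8, 51.8 and 47.1 TPM in RC48. The groups stood apart, but the log2 fold change was 0.37 (SE 0.11, 95% interval 0.12 to 0.62) and the adjusted p 0.154 in edgeR. With a correction for the GC content of each gene the log2 fold change was 0.36 with an adjusted p of 0.0272, and DESeq2 gave an adjusted p of 0.0353, so the call for NFKB1 turned on the method.

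RELA, on chr11:65653601-65663857, was at 69.5, 69.7 and 68.8 TPM in Control and at 69.8, 79.5 and 74.5 TPM in RC48. The lowest RC48 library lay just above the highest Control library. The log2 fold change was 0.16 (SE 0.11, 95% interval −0.09 to 0.42) with an adjusted p of 0.371 in edgeR, and it turned to −0.12 under the GC correction. The upper bound of that interval lies below the lower bound of the intervals of RELB and NFKB2.

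REL, a further activating subunit best known from lymphoid cells, on chr2:60881574-60931612, was at 44.65, 42.5 and 52.8 TPM in Control and at 15.7, 46.85 and 30.3 TPM in RC48. RC48 replicates 1 and 3 lay below all Control libraries and RC48 replicate 2 lay among them. The log2 fold change was −0.57 (SE 0.30, 95% interval −1.26 to 0.13) with an adjusted p of 0.304 in edgeR. Without RC48 replicate 2 it was −0.92 with an adjusted p of 0.0301, and limma on log2(TPM + 1), which lacks that library, gave −1.05 with an adjusted p of 0.0277. Without RC48 replicate 1 it was −0.28 (adjusted p 0.235 in edgeR), and with the GC correction −0.27 (adjusted p 0.269). The estimated counts of REL were not whole numbers in 6 of 6 libraries, as an estimate gives where reads fit more than 1 place, so its level is uncertain.

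**Figure D2:**
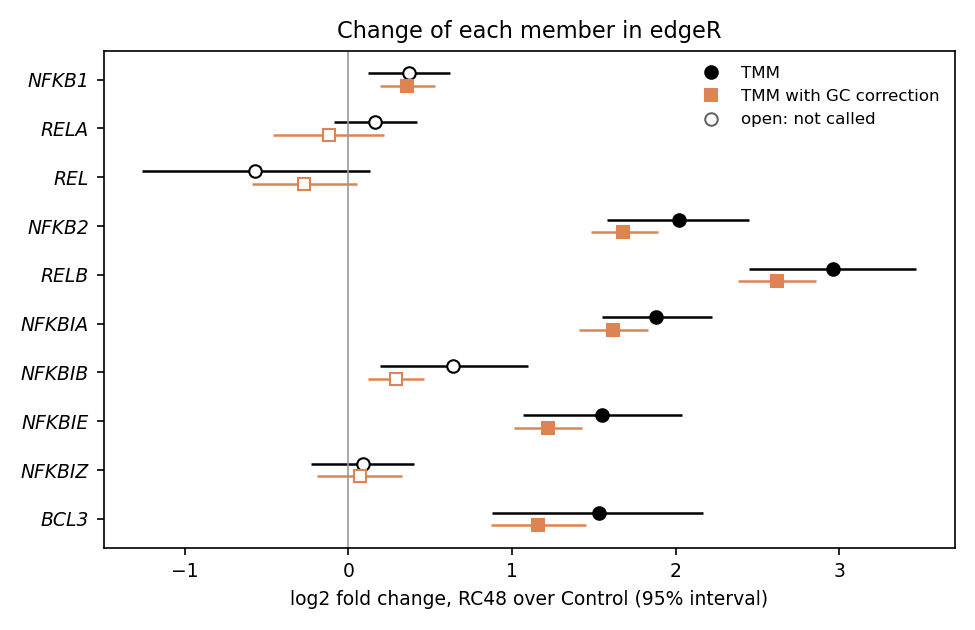
Log2 fold change of RC48 against Control for each gene, with 95% intervals, from the edgeR fit with TMM scaling and from the fit corrected for GC content, with open symbols for changes that were not called. RELB, NFKB2 and NFKBIA lie above 1.5 in both fits, and the intervals of RELA, REL and NFKBIZ span 0 in both.

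Of the cytoplasmic inhibitors, NFKBIA and NFKBIE rose and NFKBIB was not called. NFKBIA, which encodes IκBα, the inhibitor that is degraded and remade fastest in the canonical response, lies on chr14:35401513-35404749. It was at 115.2, 118.6 and 116.9 TPM in Control and at 431.5, 401.5 and 364.7 TPM in RC48, with no overlap. The fold was 3.69, a log2 fold change of 1.88 (SE 0.15, 95% interval 1.55 to 2.22), with an adjusted p of 0.00073 in edgeR.

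NFKBIE, which encodes IκBε, lies on chr6:44258166-44265551. It was at 10.4, 9.85 and 10.2 TPM in Control and at 33.5, 23.0 and 27.1 TPM in RC48. All RC48 libraries lay above all Control libraries, and RC48 replicate 1 was the highest. The fold was 2.94, a log2 fold change of 1.55 (SE 0.21, 95% interval 1.07 to 2.04), with an adjusted p of 0.0106 in edgeR. The call was lost without any 1 of the 3 Control libraries or without RC48 replicate 3, with adjusted p-values of 0.0736, 0.086, 0.112 and 0.0576 in that order from Control replicate 1.

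NFKBIB, which encodes IκBβ, lies on chr19:38899666-38908889. It was at 51.7, 55.3 and 58.2 TPM in Control and at 85.8, 66.5 and 74.0 TPM in RC48. The groups did not overlap, but the RC48 libraries were unequal. The log2 fold change was 0.64 (SE 0.20, 95% interval 0.19 to 1.10) with an adjusted p of 0.17 in edgeR, and without RC48 replicate 2 it was 0.79 with an adjusted p of 0.0219. Without RC48 replicate 1 it was 0.40 (adjusted p 0.055 in edgeR), and with the GC correction 0.29 (adjusted p 0.0551).

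The nuclear IκB proteins act with bound NF-κB subunits rather than holding them in the cytoplasm. BCL3, which joins homodimers of the NFKB1 and NFKB2 products, lies on chr19:44747705-44760044, 241 kb from RELB. It was at 23.8, 24.95 and 25.8 TPM in Control and at 91.0, 49.6 and 56.6 TPM in RC48, with no overlap and with RC48 replicate 1 well above the other two. The fold was 2.88, a log2 fold change of 1.53 (SE 0.28, 95% interval 0.88 to 2.17), with an adjusted p of 0.0373 in edgeR. The call was lost without any 1 Control library or without RC48 replicate 3, with adjusted p-values between 0.104 and 0.24, and without RC48 replicate 1 the log2 fold change was 1.12 with an adjusted p of 6.14e-05.

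NFKBIZ, which encodes IκBζ, an inducible partner of the NFKB1 product at a subset of inflammatory genes, lies on chr3:101827990-101861022. It was at 50.4, 53.4 and 63.0 TPM in Control and at 49.9, 70.4 and 50.01 TPM in RC48. The RC48 libraries lay on both sides of the Control range. The log2 fold change was 0.09 (SE 0.14, 95% interval −0.23 to 0.40) with an adjusted p of 0.69 in edgeR.

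The balance of the arms was compared within each library, as sums and ratios of TPM. The noncanonical subunits made up 13.4%, 14.9% and 12.4% of the summed TPM of the 5 subunits in Control replicates 1 to 3, and 51.0%, 36.3% and 43.5% in RC48 replicates 1 to 3. The mean share went from 13.5% ± 1.26 to 43.6% ± 7.36 (SD, n = 3 each), and the lowest RC48 library lay above the highest Control library. The summed level of NFKB2 and RELB was 4.89-fold higher, at 118.6 ± 18.2 against 24.2 ± 1.57 TPM. In GC-corrected CPM, which is not scaled by transcript length, this sum was 3.93-fold higher and the mean share went from 8.18% to 27.4%. The summed level of NFKB1, RELA and REL was 154.2 ± 23.0 TPM in RC48 and 155.2 ± 7.503 TPM in Control, a difference smaller than the spread between libraries. These sums describe chosen members and carry no test.

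**Figure D3:**
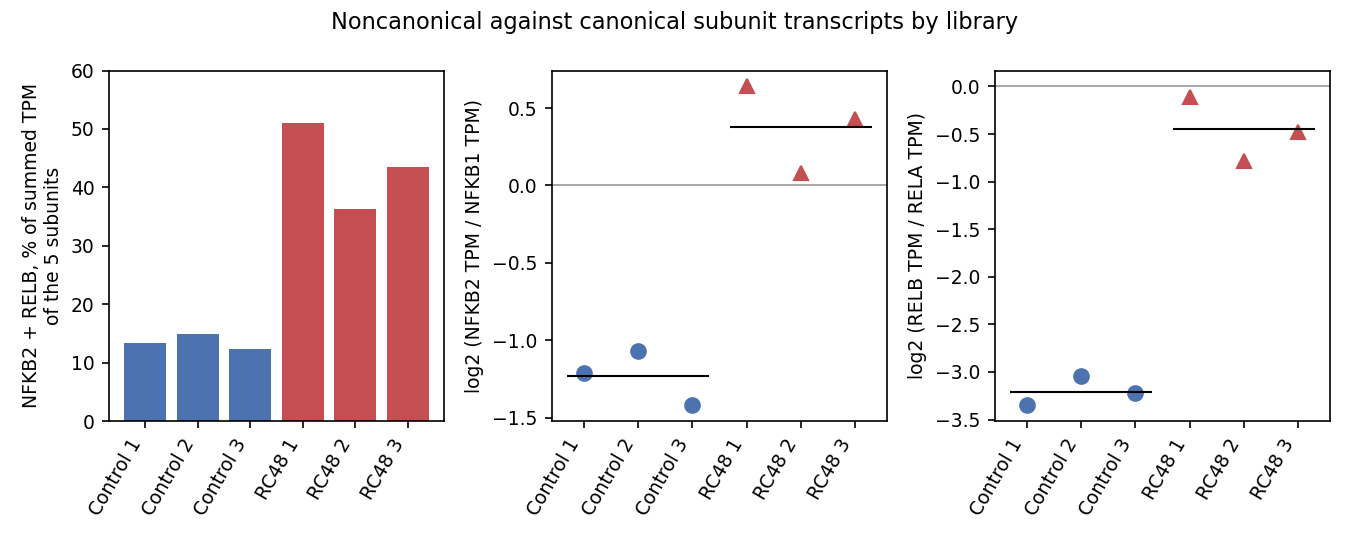
Percent of the summed TPM of the 5 NF-κB subunits taken by NFKB2 and RELB as 1 bar per library, and the log2 TPM ratios of NFKB2 to NFKB1 and of RELB to RELA as 1 point per library with a line at each group mean. The share lies between 12.4% and 14.9% in Control and between 36.3% and 51.0% in RC48.

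The same shift stood in the ratios of matched members. The log2 ratio of NFKB2 to NFKB1, the precursors of the arms, was −1.21, −1.07 and −1.42 in Control and 0.64, 0.08 and 0.43 in RC48, so that NFKB2 went from the less to the more abundant of the pair in all RC48 libraries. The difference between group means was 1.62 on the log2 scale in TPM, and 1.33 in GC-corrected CPM. For RELB over RELA, the activating subunits of the arms, the log2 ratio was −3.35, −3.04 and −3.22 in Control and −0.11, −0.78 and −0.48 in RC48. RELB stayed below RELA in every library while the difference between group means was 2.75 in TPM and 2.76 in GC-corrected CPM. The log2 ratio of NFKBIA to RELA, an inhibitor against the subunit it holds, was 0.75 ± 0.02 in Control and 2.42 ± 0.18 in RC48.

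The RC48 libraries differed among themselves along the GC content of genes. The Spearman correlation between a gene's GC content and its log2 ratio to the Control mean was 0.735 in RC48 replicate 1, −0.00976 in RC48 replicate 2 and 0.565 in RC48 replicate 3, over 13000 genes that share each library, and it lay between −0.221 and 0.212 in the Control libraries. Most members are GC-rich. BCL3 (65.4% GC), RELB (64.5%), NFKBIB (63.6%) and NFKB2 (62.4%) lay at percentiles 91.1 to 97.3 of the tested genes, whose median was 49.9%, while REL at 40.4% lay at percentile 9.22.

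The order of the RC48 libraries in the members moved with that trend. The log2 ratio of RELB to the Control mean was 3.31, 2.59 and 2.91 in RC48 replicates 1 to 3 in TMM-scaled CPM, and 2.62, 2.59 and 2.66 after GC correction. For NFKBIB these ratios were 1.03, 0.28 and 0.51 before and 0.33, 0.29 and 0.26 after. REL went the other way, with −1.42, −0.04 and −0.55 before and −0.61, −0.03 and −0.23 after. RELA did not follow: its ratios of 0.18, 0.14 and 0.17 became −0.49, 0.15 and −0.07, a wider spread after correction than before. RC48 replicate 2, the library without the trend, gave log2 ratios of 2.59 for RELB, 1.68 for NFKB2, 1.76 for NFKBIA, 1.14 for NFKBIE and 0.97 for BCL3 without any correction.

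**Figure D4:**
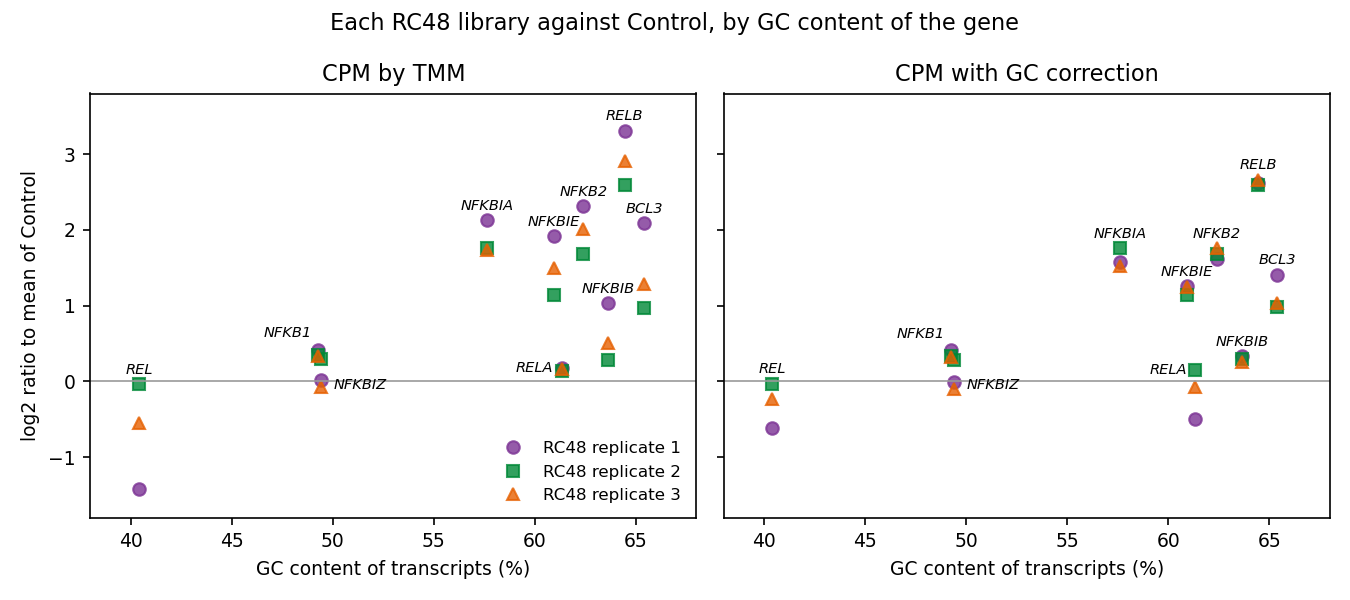
For the 10 genes, the log2 ratio of the 3 RC48 libraries to the mean of Control against the GC content of the transcripts in percent, in TMM-scaled CPM in one panel and in GC-corrected CPM in the other. In TMM-scaled CPM replicate 1 lies highest in RELB (3.31) and lowest in REL (−1.42), and after correction the points of RELB lie between 2.59 and 2.66.

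With the GC correction in edgeR, NFKB2 had a log2 fold change of 1.68 (adjusted p 2.99e-05), RELB 2.62 (8.43e-06) and NFKBIA 1.62 (4.19e-05). NFKBIE had 1.22 (adjusted p 0.0002) and BCL3 1.16 (adjusted p 0.0014). All 5 called members thus remained called at smaller fold changes, and NFKB1 was added. By this fit 6.73% of all genes tested were called, 4.33% higher and 2.41% lower. What produced the GC trend was not tested.

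The wider pathway was read from lists of genes by role, chosen with earlier results of these data known. Of the 25 genes of canonical signalling, from receptors through the IKK complex to the ubiquitin ligase that marks IκB, none was called by edgeR. At an unadjusted p under 0.05 in edgeR, 6 were higher and none lower, where 11.9% of all genes tested were higher and 7.21% lower. Of the 25, 17 had a log2 fold change above 0 and the median was 0.06, beside 0.02 over all genes tested. DESeq2 called 2 of them higher, where it called 744 of all 13055 genes tested in either direction. IKBKB, the catalytic kinase of the canonical IKK complex, had a log2 fold change of 0.06 (adjusted p 0.752), or −0.08 (adjusted p 0.531) with the GC correction, and IKBKG, its scaffold subunit, 0.33 (adjusted p 0.29). Under the GC correction 1 gene of the list was called higher, where 4.33% of all genes tested were. It was MYD88, the adaptor of Toll-like and interleukin-1 receptors (log2 fold change 0.38, adjusted p 0.0327).

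Of 13 genes of noncanonical signalling, 12 were tested and 2 rose, where 1.98% of all genes tested were called higher. The median of the list was 0.19. At an unadjusted p under 0.05 in edgeR, 5 were higher and none lower, where 11.9% and 7.21% of all genes tested were. BIRC3, a ubiquitin ligase that keeps NIK low and is itself a known NF-κB target, was at 2.37, 1.85 and 1.59 CPM in Control and 12.1, 18.8 and 16.0 CPM in RC48. Its log2 fold change was 3.01 (SE 0.24) with an adjusted p of 0.000953 in edgeR. TNFRSF12A, the receptor of the cytokine TWEAK, was at 54.4, 54.6 and 50.8 CPM in Control and 129, 81.7 and 101 CPM in RC48, with a log2 fold change of 0.97 and an adjusted p of 0.0374.

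The kinases of the noncanonical arm did not pass the test in either fit. MAP3K14, which encodes NIK, was at 13.9, 13.4 and 15.5 CPM in Control and 19.1, 10.3 and 12.7 CPM in RC48, with the RC48 libraries on both sides of Control. Its log2 fold change was −0.02 (95% interval −0.56 to 0.51, adjusted p 0.953 in edgeR). CHUK, which encodes IKKα and stands in both signalling lists, had a log2 fold change of −0.31 (adjusted p 0.35), which turned to 0.08 (adjusted p 0.59) with the GC correction. TRAF3, the adaptor that brings NIK to its degradation, was at 56.7 ± 2.81 CPM in Control and 89.4 ± 15.1 CPM in RC48 (SD, n = 3), with a log2 fold change of 0.66 and an adjusted p of 0.0805, and with the GC correction it was called (0.53, adjusted p 0.0133). NIK is regulated mainly through the stability of the protein, which RNA does not report.

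Of 10 feedback regulators that are not among the members, which include the further IκB family gene NFKBID, 3 rose and none was called lower. Over all genes tested, 1.98% were called higher and 0.23% lower. In the list 8 had a log2 fold change above 0, with a median of 0.48. At an unadjusted p under 0.05 in edgeR, 6 were higher and none lower, where 11.9% and 7.21% of all genes tested were. TNFAIP3 encodes A20, an enzyme that edits ubiquitin chains and ends canonical signalling. It was at 5.26, 4.46 and 5.18 CPM in Control and 53.1, 62.6 and 58.1 CPM in RC48, with a log2 fold change of 3.54 (SE 0.15, adjusted p 7.66e-05 in edgeR). ZC3H12A, which encodes an RNase that cuts inflammatory transcripts, went from 47.7 ± 2.01 to 218 ± 24.6 CPM, a log2 fold change of 2.19 (adjusted p 0.000336). TNIP1, a partner of A20, was at 145, 145 and 127 CPM in Control and 318, 285 and 319 CPM in RC48, a log2 fold change of 1.14 (adjusted p 0.00279).

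Of 32 textbook NF-κB targets, 26 were tested, 17 of them rose and none fell. Of the 26, 7 (CXCL3, CXCL10, CCL2, CCL20, TNF, LTB and CSF2) had under 10 counts in every Control library and passed the filter through RC48, so their direction was fixed by the filter. CXCL1 and CCL5 had under 10 counts in at least 1 Control library and also needed RC48 libraries to pass. Among the 17 targets with at least 10 counts in every library, 9 rose and none fell in a fit on such genes, with a median log2 fold change of 0.80. That fit called 203 of 12530 genes higher. CXCL1, a neutrophil chemokine, was at 0.809, 0.927 and 0.53 CPM in Control and 79.3, 82.2 and 73.6 CPM in RC48, with a log2 fold change of 6.68 (adjusted p 2.24e-05 in edgeR). CXCL8, which encodes interleukin 8, had a log2 fold change of 6.09 (adjusted p 0.000432) and CCL20, a chemokine for lymphocytes, 5.13 (adjusted p 0.000637). LTB, a subunit of the ligand of the lymphotoxin β receptor that drives the noncanonical arm, had 0 counts in all Control libraries and 600 in RC48, at least 198.5-fold higher against a floor of 3 counts over the group. TNF, the cytokine that drives the canonical arm, had 1 count in Control and 142 in RC48, a ratio of 140.9 with an exact 95% interval of 24.89 to 5604 for counting error only. CCL2, a monocyte chemokine, had 1 and 49 counts, a ratio of 48.6 (8.33 to 1959). These cytokines rested on few molecules per library, at 2.12 to 3.22 CPM for TNF and 10.6 to 13.1 CPM for LTB in RC48. Of 8 genes known as targets of the noncanonical arm, only PLK4 and ENTPD1 were expressed enough to be tested, with log2 fold changes of −0.54 (adjusted p 0.257 in edgeR) and −0.28 (adjusted p 0.306), and CXCL12, CXCL13 and TNFSF11 had at most 3 counts in any library.

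**Figure D5:**
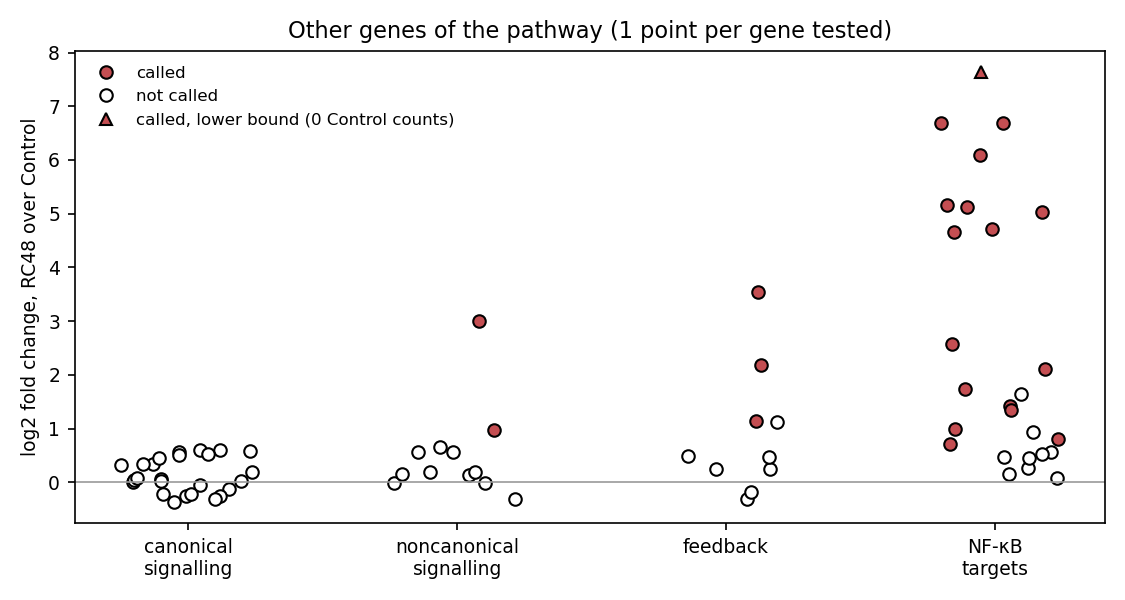
Log2 fold change of RC48 against Control for each tested gene of the pathway lists, 1 point per gene, with called genes filled and LTB, which had 0 Control counts, drawn as a triangle at its lower bound. The points of the canonical signalling list gather around 0 with a median of 0.06 and none filled. The NF-κB targets reach from 0.08 to above 6, where 7 of them had under 10 counts in every Control library.

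The label of the cell line was checked against markers of cell types. All 11 luminal urothelial markers were listed, with a summed level of 4870 to 5400 CPM in Control and 4910 to 5450 CPM in RC48. KRT8 and KRT18 made up most of that sum. KRT20, a keratin of differentiated luminal cells, was called lower (log2 fold change −1.55, adjusted p 0.0489 in edgeR), 1.94 to 2.03 CPM in Control and 0.486 to 1.00 CPM in RC48, and UPK1B was called lower with the GC correction (−0.36, adjusted p 0.0494). FOXA1 and EPCAM also lay below Control without overlap and were not called (log2 fold changes −0.44 and −0.49). The basal markers summed to 333 to 352 CPM in Control and 310 to 343 CPM in RC48, with none of 4 called. CD44, at 321 to 338 CPM in Control, made up most of that sum. KRT14 lay above Control without overlap (log2 fold change 0.68, adjusted p 0.233 in edgeR), while KRT5 (0.45) and KRT6A (−0.18) overlapped between groups. Of the fibroblast markers, COL3A1 was at 279, 263 and 299 CPM in Control and 357, 431 and 446 CPM in RC48 and was called with the GC correction only (log2 fold change 0.58, adjusted p 0.00994). LUM was at 166, 171 and 166 CPM in Control and 67.9, 114 and 94.5 CPM in RC48 (adjusted p 0.0688), while DCN and PDGFRB had at most 3 counts in any library. The summed level of the leukocyte markers was 2.49 to 2.72 CPM in Control and 7.31 to 11.7 CPM in RC48, with 9 of 12 listed. CD74 and ITGAM were called higher among them (log2 fold changes 1.42 and 5.12, adjusted p 0.0475 and 0.0074 in edgeR), with ITGAM passing the filter through RC48, while PTPRC and FCER1G, defining leukocyte genes, had at most 3 counts in any library. The summed level of the endothelial markers was 27.9 to 29.7 CPM in Control and 18.4 to 24.9 CPM in RC48. The part of these shifts in the changes of the NF-κB genes was not tested.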

How the data were processed

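Per the labels, RNA-seq libraries of SW780 cells were deposited as 1 gene table each. The authors filtered reads with SOAPnuke, aligned them with Bowtie2 and estimated counts per gene with RSEM on hg38, as the submitters' processing notes and the methods name them; versions are not given in the sources used here. The deposited expected counts were rounded to whole numbers before testing, and 11.7% to 15.0% of them were not whole. TPM values deposited by the authors were present in 5 tables; those of RC48 replicate 2 were computed here from the estimated counts and the transcript lengths, and the same procedure on RC48 replicate 3 differed from the deposited TPM by a median of 0.0074 on the log2 scale over 11982 genes. TPM serves to compare levels between genes.

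The main test was edgeR 4.0.16's quasi-likelihood test (R 4.3.3) of RC48 against Control on the 6 libraries, with filterByExpr, TMM scaling and Benjamini-Hochberg adjustment over 13055 genes, called at an adjusted p of 0.05. The test was also run on simulated counts that held no GC trend, so that run does not cover the trend seen here. Alternatives were other scalings and filters, DESeq2 1.42.0, limma 3.58.1 (voom with sample weights, and log2 TPM in 5 libraries), a loess GC correction with a span of 0.3, a replicate block, and leaving out each library. GC content was known for 99.4% of the genes. Coordinates and promoter sequences are from RefSeq on GRCh38.p14, and sums of levels were made in Python 3.11.15.

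All members, the called genes of each pathway list (up to 6 by size of change) and 5 signalling genes were named, with MYD88, NFKBID, PLK4, ENTPD1, CXCL3, CXCL10, CSF2, the named cell type markers CD74, ITGAM, PTPRC, FCER1G, KRT8, KRT18, KRT20, UPK1B, FOXA1, EPCAM, COL3A1, LUM, DCN and PDGFRB, and CXCL12, CXCL13 and TNFSF11 added after their values were seen. CCL5, CD44, KRT5, KRT14 and KRT6A were added in the same way. Members and lists were chosen with earlier results of these data known. The summed and per-library values carry no test, since 3 against 3 libraries cannot reach 0.05 in a two-sided exact permutation test.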

Additional observations from a re-analysis of the deposited data

How the results depend on the processing

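NFKB2, RELB and NFKBIA were called higher under all 23 alternatives, with adjusted p-values up to 0.036, 0.0222 and 0.0216. NFKBIE and BCL3 were called in 19 of 23, NFKB1 and NFKBIB in 6, REL in 4, RELA in 1 and NFKBIZ in none. The calls of REL were all lower with RC48, and those of the other genes all higher. The number of members called, 5 in the fit described above, was 9 with voom (8 higher, 1 lower), which called 8018 of all 13055 genes tested. Voom weighted RC48 replicate 3 at 7.64 and RC48 replicate 1 at 0.0968. With 1 library left out the number ran from 3 to 8. It was 3 without any 1 Control library or RC48 replicate 3, where 68 to 93 of all genes were called. It was 8 (7 higher, 1 lower) without RC48 replicate 2, where 3726 of all genes were called.

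The number of genes called, 288, became 879 with the GC correction, 562 with the GC correction and the replicate block, 744 with DESeq2, 8018 with voom, and 2894 and 2829 with limma on log2(TPM + 1) and log2(TPM + 0.1). It ran from 68 to 3726 with 1 library left out, 897 without RC48 replicate 1 and 3726 without RC48 replicate 2, and from 247 to 2206 when the GC correction was kept as well (1504 and 2206 without those libraries), an alternative chosen after seeing the data. Of all 13055 genes tested, voom thus called 8018 and limma 2894 or 2829, so many calls in any list of genes come with those fits. Canonical signalling genes called, 0 of 25, became 1 with the GC correction and 2 with DESeq2. They became 15 with voom (10 higher, 5 lower) and 6 with limma at either pseudocount (4 higher, 2 lower). With 1 library left out they ran from 0 to 9 (7 higher, 2 lower, without RC48 replicate 2), and reached 2 and 4 with the GC correction and 1 library left out. Noncanonical signalling genes called, 2 of 12 tested, became 4 with the GC correction, 9 with voom (8 higher, 1 lower) and 4 and 5 with limma. They ran from 1 to 6 with 1 library left out (5 higher, 1 lower, without RC48 replicate 2) and reached 5 with the GC correction as well. Feedback genes called, 3, became 10 with voom (8 higher, 2 lower) and 5 with limma (4 higher, 1 lower). They ran from 3 to 6 with 1 library left out and reached 5 and 6 with the GC correction as well. NF-κB targets called, 17, became 9 where at least 10 counts in every library were required, since fewer genes were then tested. Noncanonical targets called, 0, became 2 with voom, 1 with limma and up to 1 with 1 library left out. All of these calls were lower with RC48. The cause of the other shifts was not tested.

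The log2 NFKB2 to NFKB1 ratio differed by 1.33 rather than 1.62 in GC-corrected CPM. RELA turned below 0 with the GC correction (−0.12), the GC correction with the replicate block (−0.14) and the GC correction with 1 library left out (−0.11, −0.14, −0.27 and −0.16), except without RC48 replicate 1 (0.03); without the GC correction it stayed above 0, at 0.11 to 0.19 with 1 library left out. NFKBIZ ranged from −0.03 (without RC48 replicate 2) to 0.14 with 1 library left out, and turned below 0 also without RC48 replicate 2 under the GC correction (−0.06), with voom (−0.01) and with limma on TPM (−0.15). With a replicate block 331 genes and 5 members were called. The deviations of same-numbered libraries from their group means correlated at −0.00606, −0.123 and 0.0123. These values cannot settle whether replicates were paired, which no source used here states. Depth limits CXCL3, CXCL10, CCL2, CCL20, TNF, LTB and CSF2, which had 0 to 6 counts summed over Control.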
